A study of Drosophila melanogaster with 3 samples.

Results

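The 9 genes of juvenile hormone synthesis, breakdown and response were followed through 3 RNA-seq libraries of Drosophila melanogaster larvae. They were chosen by name, not by value, and all 9 (Met, gce, Kr-h1, jhamt, Jhe, Jheh1, Jheh2, Jheh3 and Fpps) were present among the 13990 genes of both deposited tables. The study depleted Aac11, the fly counterpart of mammalian API5 (apoptosis inhibitor 5), to see how RNA levels change in larvae. Act>control carries the Actin5c-Gal4 driver, active in most tissues, with no hairpin named in its label. Act>Aac11-RNAi (labelled Act-Aac11-IR) adds a UAS hairpin against Aac11 to that driver. The enGFP+Yki+Aac11-IR library names in its label enGFP, the growth coactivator Yorkie (Yki) and the same gene's hairpin, and is called the Yki library below. All were wandering L3 larvae, sorted for GFP and kept at 25 degrees Celsius under 12 h of light. For each Act genotype 10 to 20 larvae were pooled, and no number of larvae is stated for the Yki library. Each group is 1 pooled library, so no difference below has a replicate check, and no p-value is given.

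Juvenile hormone is a sesquiterpenoid made in the corpora allata, which in larvae form part of the ring gland. Farnesyl diphosphate from the mevalonate pathway is its carbon source, and a methyltransferase encoded by jhamt acts late in its synthesis. The hormone binds the paired bHLH-PAS receptors Met and Gce, which turn on Kr-h1, a zinc-finger repressor that holds back metamorphosis. Hydrolysis by an esterase (Jhe) and by epoxide hydrolases (Jheh1, Jheh2 and Jheh3) clears it, and in flies its titre is known to fall before wandering.

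The tables give FPKM, fragments per kilobase of transcript, corrected for library depth, a unit that allows levels of different genes to be compared within a library. Spacing of the lowest values gave depths near 5990000 (control), 30300000 (Act>Aac11-RNAi) and 18100000 (Yki) fragments, so low control values are the least precise. Aac11 itself measured 150 FPKM in the control, 78.1 in the Aac11-RNAi library and 117 in the Yki library. The source labels read wing disc cells, whereas the protocol describes whole larvae ground in Trizol. Summed FPKM over 7 fat body markers was 13448 in the control, 9425 in the Aac11-RNAi library and 28.7 in the Yki library, and over 13 testis markers it was 4237, 1107 and 11.5. Median ranks of 10 wing disc markers stood at percentile 48.4, 58.7 and 82.2 of all genes in the same order. Because the Yki table was normalized by itself and its tissue markers differ, tissue, genotype and normalization cannot be told apart between it and the Act libraries, and levels there are compared as balances between genes of 1 library. In RNA from pooled tissue, fewer cells of a type and less RNA per cell cannot be told apart either.

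The 9 genes spanned nearly the full range of expression. Jhe, Fpps and Jheh2 were the 3 most abundant of them in both Act libraries, and jhamt was listed at 0 in both. In the Yki library the order was different: Jheh2, Fpps and Kr-h1 led. The lowest there were jhamt, Jhe and gce, on 2, 2 and 4 fragments. In the control every step down the order exceeded the counting intervals except Met to gce and Kr-h1 to jhamt. In the Aac11-RNAi library the exception was Jheh3 to gce. In the Yki library the exceptions were Jheh1 to Met, Jheh3 to jhamt, jhamt to Jhe and Jhe to gce. The order of jhamt, Jhe and gce there was therefore not resolved.

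**Figure D1:**
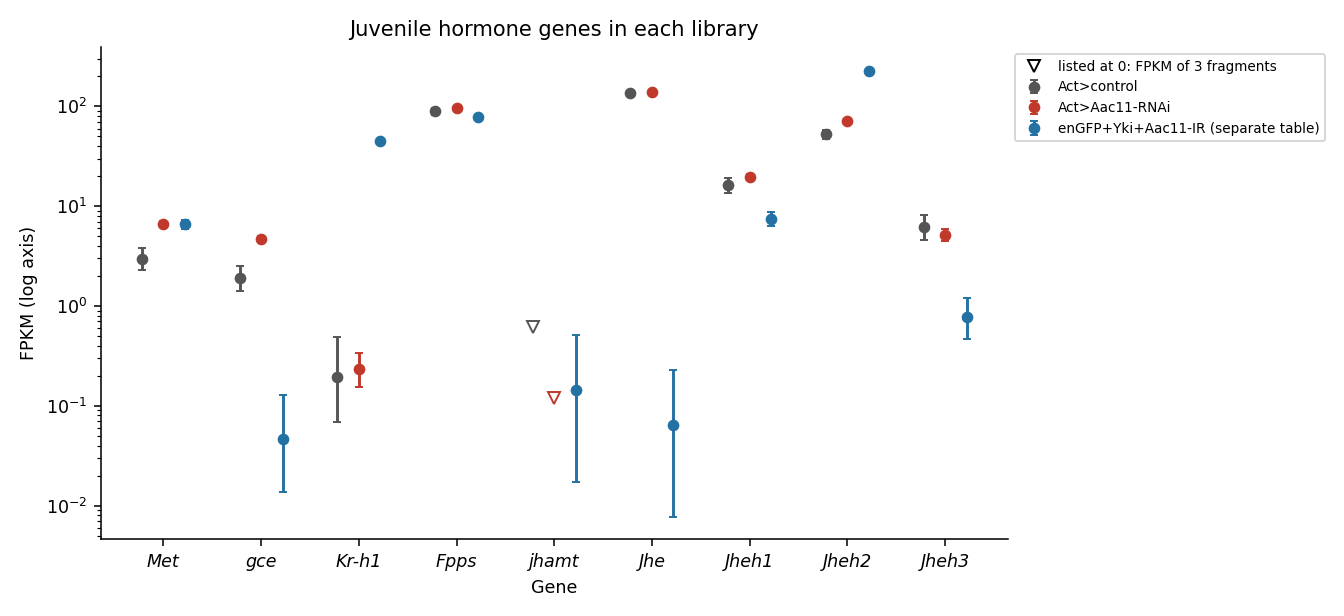
FPKM of the 9 genes (log axis) in the 3 libraries, 1 point per library with its exact Poisson 95% interval from fragments, and open triangles at the FPKM of 3 fragments where a gene is listed at 0. Kr-h1 stands at 44.5 FPKM in the Yki library and below 0.25 FPKM in both Act libraries, whereas Jhe and gce show the opposite order.

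Of the receptors, Met (chromosome X, 11616124 to 11621280, plus strand, Release 6 genome) measured 2.95 FPKM in the control, 6.66 in the Aac11-RNAi library and 6.59 in the Yki library. About 63, 721 and 420 fragments lay behind these values, counted at the shortest annotated transcript. The paralog gce, "germ cell-expressed" (chromosome X, 15297766 to 15319074, plus strand), measured 1.89, 4.69 and 0.0468 FPKM in the same order. Thus both receptor RNAs were present in both Act libraries, and gce was nearly undetected in the Yki library, where 4 fragments lay behind its value. The antisense genes CR44429 and CR44961 overlap the span of gce. Shared exons were not examined, and no source used here gives the strand setting of the counting, so the gce values may hold some of their reads.

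The balance of the receptors makes the contrast without any scaling between tables. The ratio of gce to Met was 0.641 in the control, with an exact 95% counting interval of 0.433 to 0.943. It was 0.704 in the Aac11-RNAi library (0.632 to 0.785). In the Yki library it was 0.00711 (0.00208 to 0.0198). The intervals of both Act libraries overlap, and that of the Yki library lies below both of them.

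Kr-h1, the receptors' target (chromosome 2L, 6082603 to 6096498, plus strand), measured 0.195 FPKM in the control on about 5 fragments and 0.235 FPKM in the Aac11-RNAi library on about 28. In the Yki library it measured 44.5 FPKM, at percentile 81.7 of all genes there, compared with 13.0 in the control and 12.2 in the Aac11-RNAi library. Relative to Met, Kr-h1 stood at 0.0660 in the control (0.0223 to 0.175), 0.0353 in the Aac11-RNAi library (0.0230 to 0.0508) and 6.76 in the Yki library (6.10 to 7.50). Kr-h1 RNA was therefore rarer than that of its receptor in both Act libraries and more abundant than it in the Yki library. The gene CG45075, not analysed here, is annotated on the same strand from 6091412 to 6096498, inside Kr-h1, so the value may hold reads of both.

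**Figure D2:**
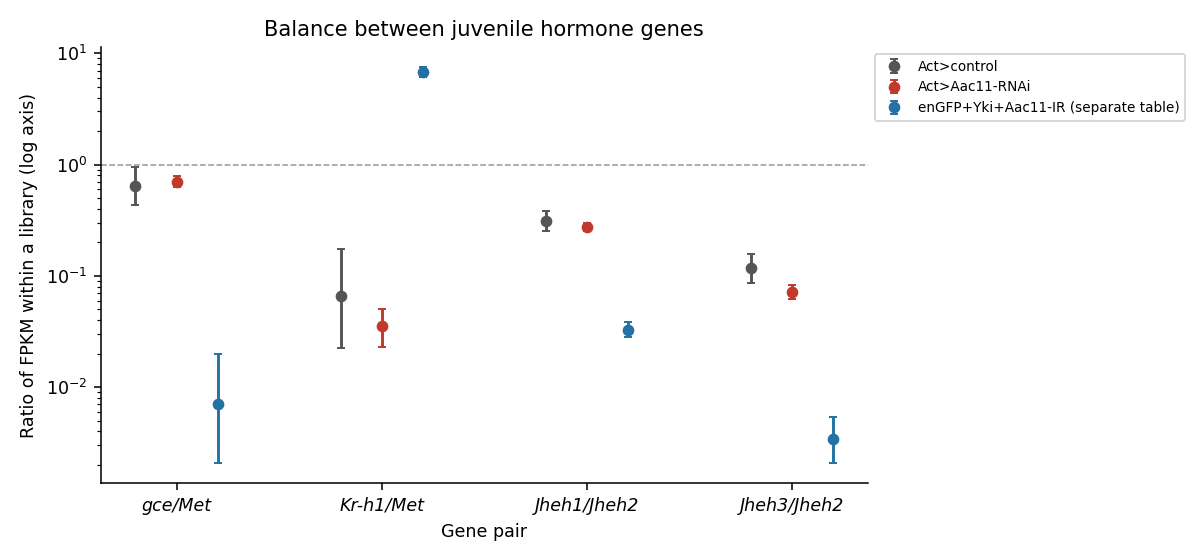
Ratio of FPKM between genes within each library (log axis), with exact 95% counting intervals, where the dashed line marks equal levels. The gce/Met, Jheh1/Jheh2 and Jheh3/Jheh2 ratios are lowest in the Yki library, and Kr-h1/Met is highest there at 6.76.

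On the synthesis side, Fpps (chromosome 2R, 11305511 to 11307528, minus strand) makes farnesyl diphosphate for many isoprenoid products besides the hormone. By percentile within each library it was the most even of the 9. It measured 89.3 FPKM in the control, 97.2 in the Aac11-RNAi library and 77.8 in the Yki library, at percentiles 88.8, 91.1 and 89.8. The gene CG7741 on the plus strand overlaps the span of Fpps, and the Fpps values may hold some of its reads. The methyltransferase gene jhamt (chromosome 2L, 16365903 to 16367039, plus strand) was listed at 0 in both Act libraries and measured 0.143 FPKM in the Yki library on 2 fragments. A count of 3 fragments would correspond to 0.619 FPKM in the control and 0.119 in the Aac11-RNAi library, so jhamt RNA was not detectable at these depths, and a 0 in a table without counts can also be a failed estimate.

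Among the breakdown enzymes, the esterase gene Jhe (chromosome 2R, 16119793 to 16122773, plus strand) was the highest of the 9 in both Act libraries. It measured 136 FPKM in the control, 140 in the Aac11-RNAi library and 0.0637 in the Yki library, the last on 2 fragments. Both Act values had overlapping counting intervals and lay at percentiles 93.04 and 94.10 of all genes, whereas the Yki value was near the detection limit. The summed fat body markers were likewise lowest in the Yki library, as given above, and their part in the difference was not tested. With both genes at 2 fragments in the Yki library, the ratio of Jhe to jhamt there was 0.447 with an interval of 0.0327 to 6.22, and no ratio was formed in the Act libraries.

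The epoxide hydrolase genes lie side by side on the minus strand of chromosome 2R, Jheh1 from 18853434 to 18855087, Jheh2 from 18855767 to 18858245 and Jheh3 from 18860375 to 18862078, with 679 and 2129 bases between them. An antisense gene, CR46485, overlaps the spans of all 3, so their values may hold some of its reads. Jheh2 measured 52.3 FPKM in the control, 71.4 in the Aac11-RNAi library and 227 in the Yki library. Jheh1 measured 16.3, 19.6 and 7.45 FPKM. Jheh3 measured 6.15, 5.14 and 0.781 FPKM. Jheh2 was the highest of these neighbours in all 3 libraries and Jheh3 the lowest.

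Their proportions differed in the Yki library. Jheh2 made up 70.0% of the summed FPKM of the 3 hydrolase genes in the control, 74.3% in the Aac11-RNAi library and 96.5% in the Yki library. The Jheh1/Jheh2 ratio was 0.311 in the control (0.252 to 0.379), 0.275 in the Aac11-RNAi library (0.254 to 0.297) and 0.0328 in the Yki library (0.0281 to 0.0383). The Jheh3/Jheh2 ratio was 0.117 (0.0868 to 0.158), 0.0719 (0.0625 to 0.0826) and 0.00344 (0.00206 to 0.00536). For Jheh3/Jheh2 the intervals of all 3 libraries were apart, whereas for Jheh1/Jheh2 those of the Act libraries overlapped. Jheh1 over Jheh3, a pair added after the values were seen, was 2.65, 3.82 and 9.53, with Act intervals of 1.88 to 3.71 and 3.28 to 4.45 that overlap.

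Between the Act libraries, the largest differences among the 9 genes were those of the receptors. The log2 ratio of RNAi over control, with 1 FPKM added to each value, was 0.98 for gce and 0.95 for Met. Without the added 1 FPKM the log2 ratios were 1.31 for gce, with an exact 95% counting interval of 0.89 to 1.75, and 1.17 for Met (0.80 to 1.56). Both intervals lie above 0 and include a 2-fold difference, at a log2 ratio of 1. Both transcripts are long, and long transcripts had higher ratios across all genes. The median log2 ratio was 0.25 in the length bin of Met and 0.38 in that of gce, and after these medians were subtracted, 0.70 and 0.60 remained.

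The hydrolases and the other enzymes differed less. Each interval in this paragraph is that of the log2 ratio without the added 1 FPKM, also where the value beside it has it added. Jheh2 had a log2 ratio of 0.44, and its interval without the added 1 FPKM (0.31 to 0.60) lay above 0. For Jheh1 the log2 ratio was 0.26, with an interval that reached 0 and had an upper bound of 0.56. Fpps followed at 0.12 (0.01 to 0.24) and Jhe at 0.04 (-0.04 to 0.12). Jheh3 had the 1 negative value, -0.22, with an interval of -0.71 to 0.20 that spans 0. Kr-h1, at a log2 ratio of 0.27 without the added 1 FPKM, had the widest interval, from -1.25 to 1.87, on its 5 control fragments. These intervals cover counting error only and not the variation between animals.

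**Figure D3:**
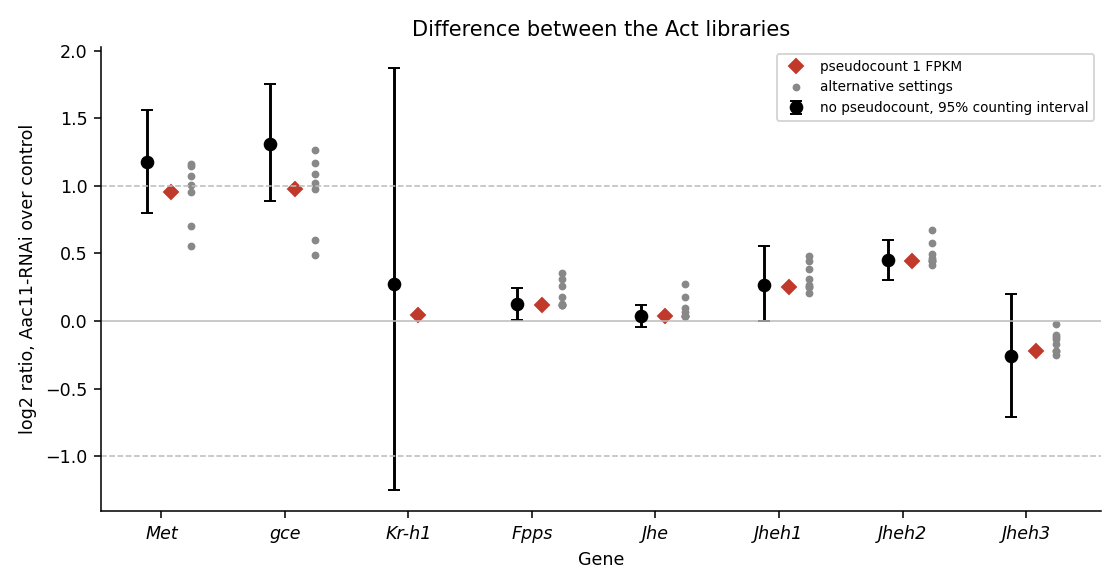
Log2 ratio of Act>Aac11-RNAi over Act>control for the 8 genes above 0 in the control, without a pseudocount (black, exact 95% counting interval), with 1 FPKM added (red) and under the alternative settings (grey), where dashed lines mark 2-fold. Met and gce stand highest at 0.95 and 0.98, just under 2-fold with 1 FPKM added.

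A gene was kept when its mean over the Act libraries was at least 1 FPKM, and called at 2-fold with 1 FPKM added. Of the 9 genes 7 were kept, all but Kr-h1 and jhamt. None was called higher, where 3.7% of the 11330 kept genes were, and none was called lower, where 17% were. Met and gce crossed the 2-fold line when 0.1 FPKM was added instead of 1, a setting that called 4.87% of kept genes higher. They also crossed it when the libraries were rescaled to a median log2 ratio of 0, to equal sums or to equal upper quartiles. These rescalings called 464, 541 and 663 of the 11330 kept genes higher, in place of 419. Of the 7 kept genes, 6 had positive log2 ratios and the median was 0.26, beside 47.4% positive and a median of -0.03 over all kept genes. By distance of log2(FPKM + 1) over the 3 libraries, the genes nearest to gce were npf (neuropeptide F, distance 0.0718), CG5656 (current symbol Alp1, 0.0852) and CG1887 (current symbol dsb, 0.101). Nearest to Jheh3 were CG31248 (0.118), Tsp68C (0.135) and CG18594 (current symbol Pebp1, 0.193). With 3 libraries such likeness is a description of level.

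Other genes of the pathway were read from lists made for this purpose. Of the mevalonate and isoprenoid list, which includes Fpps, all 9 matched genes were kept. Of these 0 were called, beside 3.7% higher and 17% lower of all kept genes, and the median log2 ratio was -0.05. The decarboxylase gene CG8239 (current symbol Mvd) measured 15.8 and 11.7 FPKM in the Act libraries, Hmgs (an early synthase of the pathway) 24.2 and 26.6, qm (geranylgeranyl diphosphate synthase) 32.5 and 41.7, and HLH106 (SREBP) 41.8 and 49.4. CG4825, at 33.4 and 23.2 FPKM, was put in the list in error, since its current symbol is Pss, a phosphatidylserine synthase gene. The count and median above include it. Its log2 ratio of -0.51 was the lowest of the list, and the negative sign of the median rests on its inclusion.

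Of 5 kept genes in the list of further synthesis and breakdown enzymes 0 were called, with a median log2 ratio of 0.06. Over all kept genes 3.7% were called higher and 17% lower. Aldh-III, an aldehyde dehydrogenase gene, measured 166 and 174 FPKM, and the cytochrome P450 genes Cyp6a13, Cyp6g2 and Cyp305a1 measured 45.3 and 43.8, 1.10 and 1.47, and 4.87 and 2.64 FPKM. Est-6, an esterase gene, measured 1.02 and 1.57 FPKM.

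Regulators of the corpora allata, such as the allatostatins and Dpp signalling, had 11 kept genes of 13 and a median of 0.21. Of the kept genes 0 were called, beside 3.7% higher and 17% lower of all kept genes. The allatostatin A gene Ast measured 2.92 and 3.84 FPKM, Mip (myoinhibiting peptide) 3.19 and 2.76, and the glutamate receptor genes Nmdar1 and Nmdar2 3.91 and 3.64, and 0.649 and 1.36. The BMP ligand gene gbb measured 88.7 and 82.6 FPKM. Genes of ecdysone synthesis and its control also had 0 of 12 called, beside the same shares of all kept genes, with a median of 0.29. Most of the enzymes act in the adjoining prothoracic gland, but the list also holds Ptth, a brain neuropeptide gene, and shd, whose enzyme acts in peripheral tissues. The most positive were mld at 9.99 and 18.8 FPKM, phm at 15.9 and 28.1, and spok at 12.5 and 22.1, and the lowest were tor at 1.39 and 0.956, shd at 2.53 and 2.45, and sro at 2.67 and 3.10.

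Among partners and reported targets of the hormone response, 2 of 13 kept genes were called higher and 0 lower, beside 3.7% and 17% of all kept genes, with a median log2 ratio of 0.26. They were br (Broad), a pupal specifier that Kr-h1 regulates, at 6.64 FPKM in the control and 23.4 in the Aac11-RNAi library, and Eip93F (E93), an adult specifier repressed by Kr-h1, at 36.5 and 77.4. With 5 FPKM added, or with length-bin medians subtracted, 1 gene of this list was past 2-fold. In the Yki library br measured 181 FPKM and Eip93F 0.126 FPKM, the latter on about 10 fragments, so Kr-h1 and br were both high and Eip93F low there. A part of Kr-h1 in these levels was not tested, and tissue, genotype and normalization cannot be told apart in that library. The competence factor gene ftz-f1 measured 5.24 and 9.78 FPKM in the Act libraries. The lowest ratios were those of SmD3 (99.4 and 88.4), JhI-21 (17.2 and 16.6) and FK506-bp1 (104 and 102).

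The takeout and hemolymph JHBP-domain family, secreted carrier-type proteins named for juvenile hormone binding protein, held the largest log2 ratios of the 6 pathway lists. For most of its fly members hormone binding is not established. All 28 listed genes were in the tables, 13 were kept, 4 of these were called higher and 0 lower, beside 3.7% and 17% of all kept genes, and the median log2 ratio was 0.35. The 4 were CG13618 (current symbol Jhbp12), CG2016 (Jhbp2), CG11852 (Jhbp7) and CG14457 (Jhbp6), the last chosen after its values were seen. Each carries a current symbol beginning with Jhbp, as do 14 of the 28.

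CG13618 (chromosome 3R, 24524794 to 24527533, plus strand) measured 5.47 FPKM in the control, 94.5 in the Aac11-RNAi library and 0.138 in the Yki library. CG2016 (chromosome 3R, 4956999 to 4961351, minus strand) measured 176, 870.2 and 13.0 FPKM. CG11852 (chromosome 3R, 25237614 to 25238895, plus strand) measured 487, 1677 and 1.83 FPKM. These were all highest in the Aac11-RNAi library. Their listed values were lowest in the Yki library, where tissue, genotype and normalization cannot be told apart. By percentile within each library CG2016 (94.7, 98.9 and 59.3) and CG11852 (98.3, 99.3 and 47.3) were also lowest there. CG13618 (33.0, 90.8 and 34.6) was not, but its Yki value rested on about 2 fragments, against 27 in the control. Genes below 1 FPKM numbered 2795 in the control, 2750 in the Aac11-RNAi library and 6308 in the Yki library. A value near the floor therefore takes a higher percentile in the Yki library, and 34.6 there does not show a level like that of the control. CG14457 (chromosome 3L, 22669956 to 22680034, plus strand) measured 1.36 and 5.63 FPKM on about 9 and 191 fragments, and was listed at 0 in the Yki library. Log2 ratios without the added 1 FPKM were 4.11 for CG13618 (3.56 to 4.71), 2.31 for CG2016 (2.202 to 2.42), 1.78 for CG11852 (1.72 to 1.84) and 2.05 for CG14457 (1.08 to 3.19).

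The family was not uniform. Takeout itself (to, named outside the rule), which neighbours CG11852 on chromosome 3R, measured 0.991 and 2.18 FPKM on about 5 control fragments, below the 2-fold line with 1 FPKM added. Without the added 1 FPKM its log2 ratio was 1.14, above that line, with a wide interval of -0.17 to 2.81. CG1124 (Jhbp1) measured 17.4 and 22.7 FPKM, CG10407 (Jhbp5) 11.5 and 12.8, and CG14661 (Jhbp3) 4.51 and 4.57, these named after their values were seen. CG14661 and CG1124 are the neighbours of CG2016 on chromosome 3R. On the lower side CG34316 measured 4.95 and 2.14 FPKM, CG7916 1.63 and 0.583, and CG17189 (Jhbp11) 1.26 and 0.888. Without the added 1 FPKM, the log2 ratio interval of CG34316, -2.00 to -0.41, lay below 0. Those of CG7916 (-2.92 to 0.07) and CG17189 (-1.85 to 1.09) span 0, on about 7 and 6 control fragments. Markers of other tissues also differed between the Act libraries. Of 7 neuron markers 4 were called higher, beside 3.7% of all kept genes (elav, Vmat, ple and Rdl, named after their values were seen), while the most abundant, n-syb at 29.9 and 33.3 FPKM and Syt1 at 14.9 and 21.3, were not. Summed neuron markers were 63.7 and 114 FPKM. Of 7 midgut markers 2 were kept and both were called higher, again beside 3.7%, LysD at 28.9 and 102 FPKM and LysB at 2.88 and 15.1. The other 5 were below the filter, none above 0.517 FPKM in either Act library. Hemocyte markers had 0 of 5 called, beside 3.7% higher and 17% lower of all kept genes. They were led by crq at 102 and 150 FPKM and Pxn at 50.5 and 40.1. The wing disc markers sd and ap measured 51.4 and 79.7, and 35.4 and 44.7. Of 7 fat body markers 0 were called higher and 1 lower, beside 17% of all kept genes. The most abundant, Lsp2 and Fbp2, were at 8453 and 5243, and at 2005 and 1233. Lsp1gamma, at 156 and 308, and Rfabg, at 661 and 1026, had the opposite direction and were named after their values were seen. Of 13 testis markers 11 were called lower, beside 17% of all kept genes. Mst87F and ocn were at 1041 and 290.0, and at 802 and 214. The part of these tissues in the differences of the family was not tested.

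**Figure D4:**
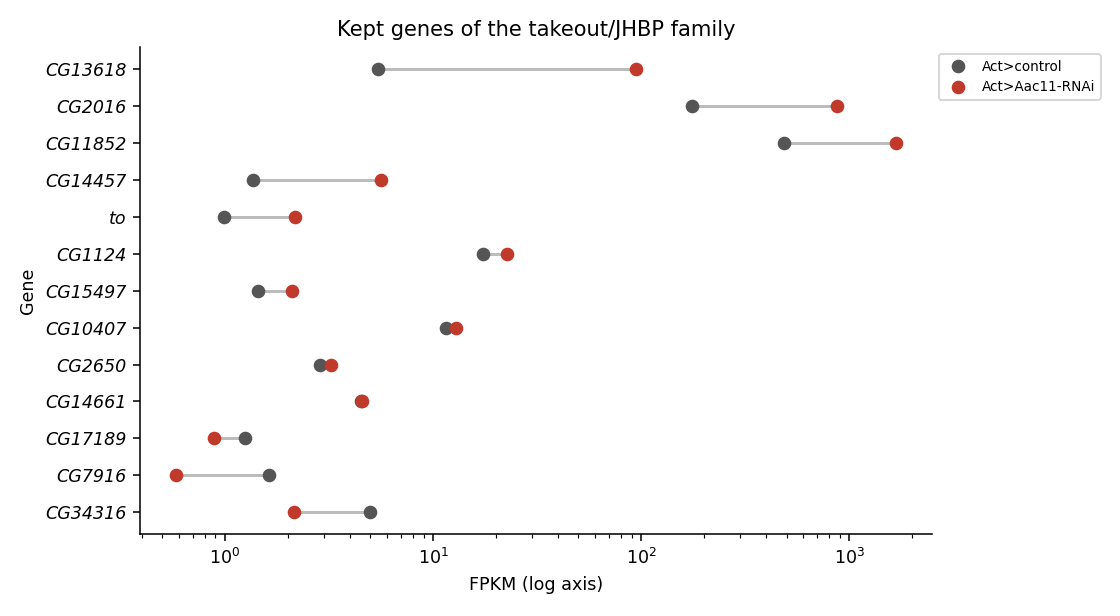
FPKM (log axis) of the 13 kept genes of the takeout and JHBP family in Act>control (grey) and Act>Aac11-RNAi (red), 1 library each, ordered by log2 ratio. CG13618, CG2016, CG11852 and CG14457 lie past 2-fold, and most of the others lie close together.

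**Figure D5:**
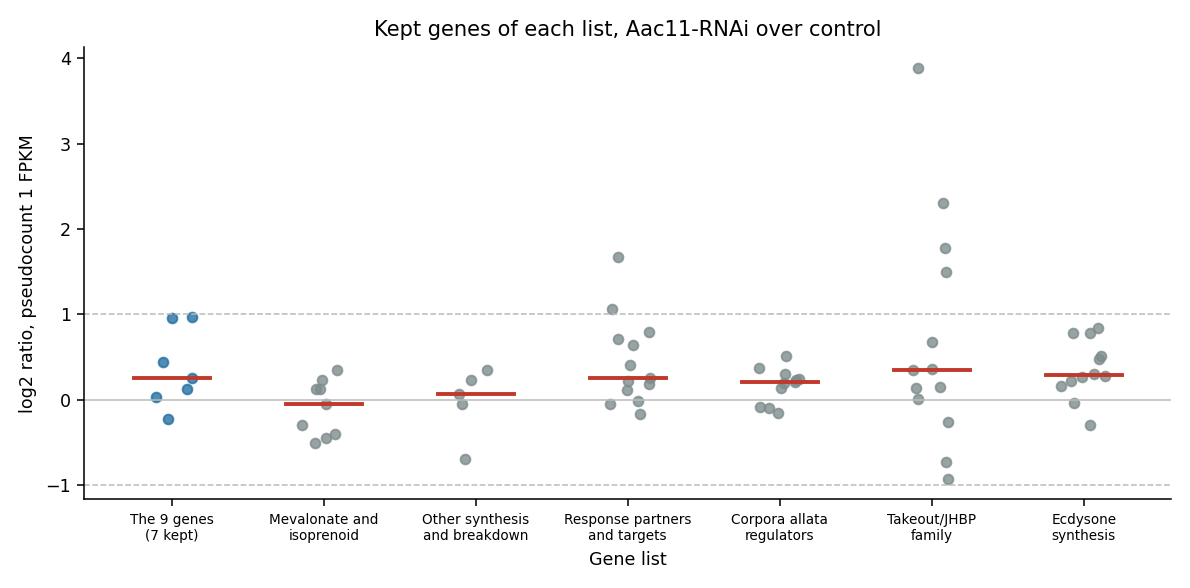
Log2 ratio of Act>Aac11-RNAi over Act>control with 1 FPKM added, 1 point per kept gene, for the 7 kept juvenile hormone genes and the 6 pathway lists, with red bars at the medians and dashed lines at 2-fold. Points past 2-fold occur in 2 of the lists, the response partners with 2 genes and the takeout family with 4.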

How the data were processed

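RNA of pooled wandering larvae was depleted of ribosomal RNA and made into TruSeq libraries, per the labels' protocols. The authors deposited FPKM values in 2 tables, the Act pair in 1 and the Yki library in the other, and the values were used as deposited. Tools listed in the submitters' processing notes are TopHat2 2.0.12, Cuffdiff 2.2.1 and CASAVA 1.4, with dm6 as build and no roles. No source used here gives the annotation, the strand setting or how libraries were scaled to each other.

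Differences are log2((RNAi FPKM + 1)/(control FPKM + 1)). Genes were kept at a mean of 1 FPKM over the Act libraries and called at 2-fold. No test was made, since each group has 1 library. The 9 genes, lists and settings were chosen with earlier results of these data known. Named genes are the 9 members, Aac11, up to 3 kept genes of highest and of lowest ratio in each of 6 pathway lists, the 2 highest of each of 6 marker lists, and the 3 genes nearest to the members of highest and lowest ratio. Some genes that this rule names are not reported here, and genes given with values outside it are marked in the text.

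In single-transcript genes longer than 1000 nt, low FPKM values fell at multiples of a step that scales with length. Within 0.2 of a whole fragment lay 81.3%, 85.4% and 88.0% of such values in the control, RNAi and Yki libraries. Fragments were read back from this step at the shortest transcript, since 3 of the 9 genes have 1 annotated transcript and the others several. Intervals are exact at 95% and cover counting error only. Coordinates and lengths are from Ensembl 115 (BDGP6.54, dm6 coordinates), which matched 97.6% of symbols, by RefSeq synonyms where needed. Sequences were not used here. Python 3.11.15, numpy 2.4.6, pandas 2.3.3 and scipy 1.17.1 were used. Alternatives were 2 pseudocounts, 2 filters, 3 rescalings and the subtraction of length-bin medians.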

Additional observations from a re-analysis of the deposited data

How the results depend on the processing

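The number of the 9 genes at least 2-fold higher was 0 as reported, and 2, Met and gce, with a pseudocount of 0.1 FPKM, with the median log2 ratio set to 0, with equal FPKM sums and with equal upper quartiles. Those settings called 552, 464, 541 and 663 of all 11330 kept genes higher. None of the 9 was 2-fold lower under any of the 8 alternatives. The filter at 5 FPKM removed Met and gce, whose log2 ratios ranged over the other 7 from 0.55 to 1.16 and from 0.49 to 1.26. Over all 8, the value of Jheh3 stayed negative, from -0.25 to -0.02. Those of Jhe, Jheh1, Jheh2 and Fpps stayed positive, which no setting could have changed. Pseudocounts and filters keep the sign, and the rescalings and the length-bin subtraction raised these values. Over all kept genes, 419 were higher as deposited, 245 with a pseudocount of 5 FPKM and 663 with equal upper quartiles, which moved the median by 0.23 and gave 1748 lower genes against 1921 (equal sums moved it by 0.13). That scaling made the higher genes 27.5% of calls in place of 17.9%. It also called 3 of 12 ecdysone synthesis genes higher, against 0, beside 663 of 11330 kept genes. In the list of response partners 1 gene in place of 2 was higher with a pseudocount of 5 FPKM or with length-bin medians subtracted. In the takeout family a pseudocount of 0.1 FPKM gave 5 higher genes in place of 4, and 2 lower in place of 0. That setting called 552 of all kept genes higher and 2068 lower. The median of the family was 1.78 with the filter at 5 FPKM, which leaves fewer genes. Ratios within a library, recomputed from whole fragments at the shortest and longest transcript (added after seeing the data), stayed within the counting intervals at the shortest transcript. This recomputation changes the deposited ratio by rounding only, so it cannot test the choice of transcript. The planned recomputation for genes with 1 transcript could be run for Jheh1/Jheh3 only. Depth limits Kr-h1 and jhamt in the Act libraries and gce, Jhe and jhamt in the Yki library. No paired analysis was possible because each group has 1 library.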
